A study of Mus musculus with 8 samples.

Results

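The lysosomal hydrolases, cathepsins and phagocytosis genes of the retina are described here as a set of 47 genes, taken from a list of symbols and matched to the array through RefSeq transcript accessions. Of these, 46 had a probe among the 20018 genes with a named probe, and Cd68, a lysosomal membrane glycoprotein of phagocytes, was not matched to a probe and is not analysed here. Total RNA of the whole retina was measured in 4 WT and 4 Lpcat1 KO samples from mice aged 2 weeks, labelled as strain C57BL/6, with 1 sample per one-colour Agilent array. Lpcat1 encodes lysophosphatidylcholine acyltransferase 1, which attaches a fatty acid to lysophosphatidylcholine. The KO is global, so Lpcat1 was deleted in every cell type and not only in photoreceptors. Per the study's methods, the line was made on a C57BL6/N background and crossed with C57BL6/J to remove the rd8 allele of Crb1, and animals homozygous for rd8 were not used. Whether a sample was 1 animal or a pool is not given in the sources used here, and p-values measure only the spread between these samples.

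Lysosomes are acidic compartments in which hydrolases break down proteins, glycans and lipids delivered by endocytosis, autophagy and phagocytosis. A proton pump in the lysosomal membrane keeps the lumen acidic, and the transcription factor TFEB raises the expression of many lysosomal genes through a short motif in their promoters. In the eye, the retinal pigment epithelium engulfs shed photoreceptor outer segments through the receptor MERTK and its bridging proteins, while microglia take up dying neurons and their debris.

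Each level is the log2 processed signal of a probe after subtracting the array's own 75th percentile, and differences are KO minus WT on this log2 scale. A gene was read from its brightest probe, and probes of different genes are not compared in level. A gene is called when limma gave a Benjamini-Hochberg adjusted p under 0.05 over all 33972 tested probes and a fold change over 1.2, which is 0.26 on the log2 scale. The targeted gene was examined first. Lpcat1 levels were -0.42, -0.39, -0.43 and -0.38 in WT and -0.88, -0.92, -0.90 and -0.78 in KO. The groups did not overlap. The log2 fold change was -0.46 (SE 0.04, limma adjusted p = 0.0036), a fall of 27.5%, so the KO arrays kept most of the signal of this probe. Whether this probe falls inside the deleted part of the gene is not given in the sources used here. The number of probes well above background was 35020 to 36366 in WT and 33110 to 35616 in KO (exact permutation p = 0.114). The WT arrays shared a slide row and the KO arrays shared the next, and hence slide row and genotype cannot be told apart.

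Of the 46 members, 42 differed by less than 1.2-fold in the estimate, and 3 rose in Lpcat1 KO retina. The 3 that rose were Ctss (cathepsin S, a cysteine protease of microglia and macrophages), Lipa (lysosomal acid lipase, which releases cholesterol and fatty acids from neutral lipids) and Mertk (a receptor tyrosine kinase for engulfment). No member was called lower (0 genes by limma and by the methods' t-test, 4 at an unadjusted limma p under 0.05). All 46 members with a probe were tested, and 45 of them were well above background on all 8 arrays. The exception was Lyz2, seen on 3 WT and 4 KO arrays. Over all 14937 tested genes, limma called 3.47% in either direction, 1.99% as higher and 1.49% as lower in KO, so 3 of 46 stands beside a background of that size. At an adjusted p under 0.05 and any fold, 4 members were higher and 1 was lower, against 6.62% of all genes in either direction.

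The members' differences were small. The median was 0.04 with quartiles of -0.05 and 0.12 and a range of -0.21 to 0.53, while the median over all tested genes was -0.02. Of the 46 members, 26 were higher and 20 were lower in KO, regardless of the test. This split moved with the scaling, since 35 members were higher under quantile normalization or cyclic loess, where 50.6% and 52.8% of all genes were higher, against 42.2% here. In 34 members (73.9%) the whole 95% interval of the difference lay within 1.2-fold either way, against 63.6% of all genes. The 4 WT and 4 KO values did not overlap in 14 members, 10 higher and 4 lower in KO, which is 30.4% against 21.2% of all genes (8.78% higher and 12.4% lower). An unadjusted p under 0.05 was reached by 16 members (12 higher, 4 lower), and by 26.2% of all 14937 genes (1629 higher, 2285 lower). The 12 include Lyz2, which entered the test only through the KO arrays, where it was brighter. In data simulated with 4 arrays per genotype and 33750 of 33950 probes unchanged, limma called 14 of 50 probes changed by 0.3 and 33 of 50 changed by 0.5. A change of 0.3 was thus missed more often than called there. In the retina data 989 of 14937 genes had an adjusted p under 0.05, which sets a looser cut on p. The simulated counts therefore do not give the share of changes missed in this comparison.

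**Figure D1:**
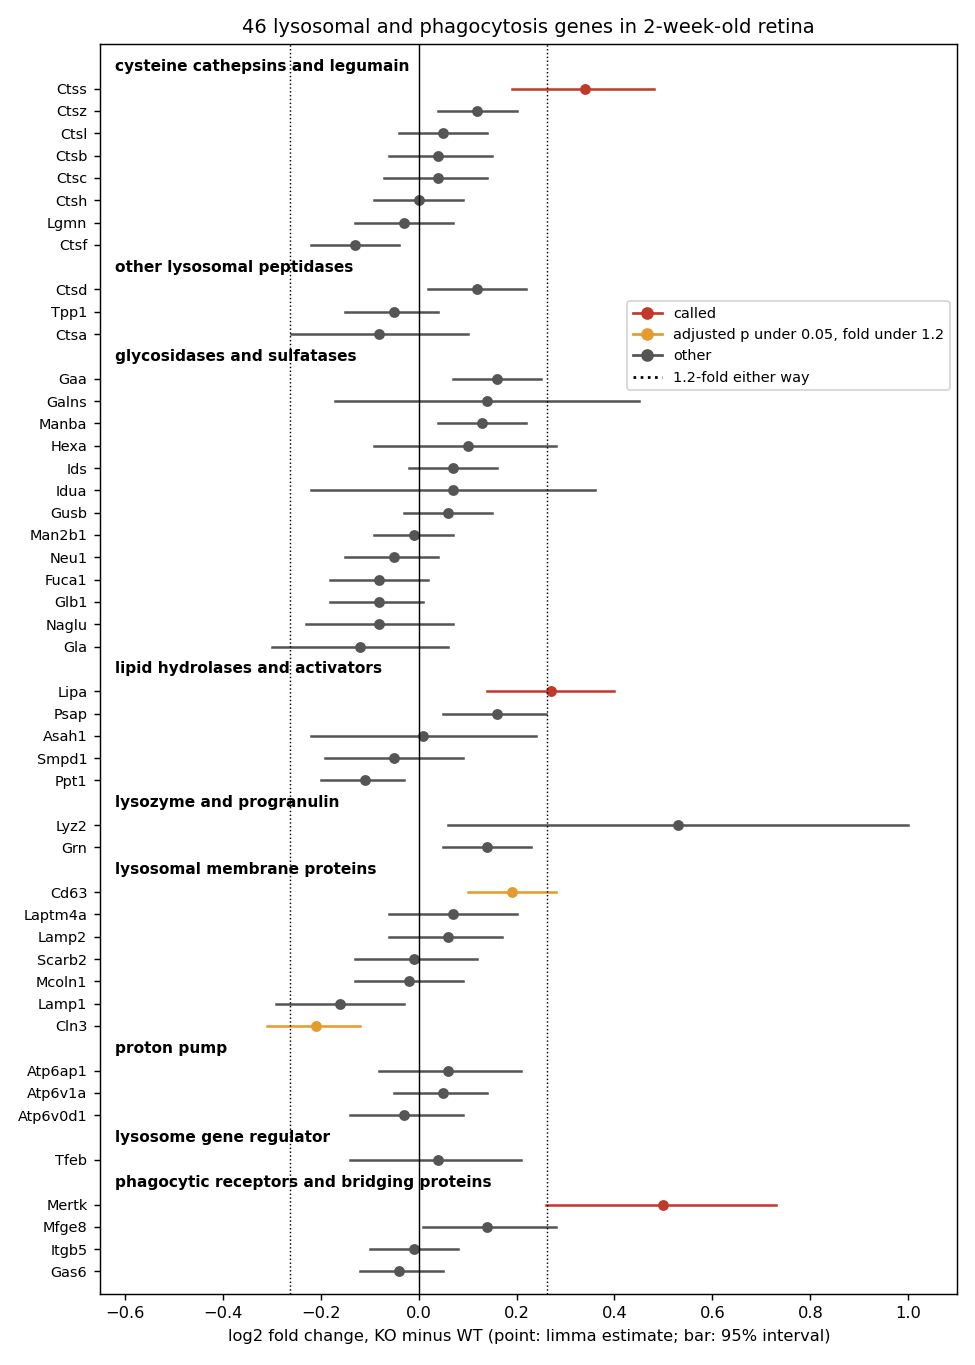
Log2 fold change (KO minus WT, x axis) of the 46 members with a probe, grouped by role, with the limma estimate as a point and the 95% interval as a bar. The 3 called members Ctss, Lipa and Mertk lie right of the 1.2-fold line, Lyz2 has the widest interval (0.06 to 1.00), and 42 of 46 estimates lie between the dotted lines.

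Cysteine cathepsins are papain-like proteases that degrade proteins in endosomes and lysosomes, and Lgmn (legumain) processes several of them. Of the 8 members of this group, 1 rose and 0 fell, and the group's median difference was 0.04. Ctss levels were 1.18, 1.23, 1.11 and 1.33 in WT and 1.53, 1.56, 1.66 and 1.45 in KO. Every KO value lay above every WT value. The difference was 0.34 (SE 0.06, 95% interval 0.19 to 0.48, limma adjusted p = 0.0274), a rise of 26.4%. Ctsz (cathepsin Z, a carboxypeptidase) was 1.95 to 1.99 in WT and 2.04 to 2.11 in KO, a difference of 0.12 that was not called (limma adjusted p = 0.0835). Ctsf (cathepsin F) lay the other way, at 3.70 to 3.82 in WT and 3.59 to 3.66 in KO, a difference of -0.13 (limma adjusted p = 0.0899). Neither gene's groups overlapped. Ctsb, Ctsc, Ctsh, Ctsl and Lgmn differed by -0.03 to 0.05, and all of their 95% intervals lay within 1.2-fold.

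Markers of microglia were higher alongside Ctss. Of 20 listed markers 17 were tested, 16 were higher in KO, 6 were called higher (Aif1, C1qa, C1qb, C1qc, Tyrobp and Ly86) and 0 lower, with a median difference of 0.28. Over the arrays, the median deviation of these markers from their WT mean was -0.05 to 0.06 in WT against 0.28 to 0.36 in KO, without overlap. Their summed linear level was 109 to 147 in WT and 137 to 166 in KO and overlapped (exact permutation p = 0.0857). Most of that sum came from the bright Siglech probe, at 93.5 to 133 in WT and 119 to 147 in KO. Without Siglech, a marker singled out after its values were seen, the sum was 14.9 to 15.8 in WT and 18.3 to 19.1 in KO (exact permutation p = 0.0286, the smallest that 4 against 4 samples can give). Of the markers that define resident microglia, P2ry12 differed by 0.06 and Tmem119 by 0.26 (limma adjusted p = 0.667 and 0.0896), and Sall1 was not well above background on any array. Blood and infiltrating leukocyte markers had 0 of 5 tested genes called, and Ccr2, S100a8 and Mpo were not well above background on any array. In whole retina, more cells of a type and more RNA per cell cannot be told apart, and the part of microglial RNA in the differences of Ctss and of the Lipa, Lyz2, Grn and Mertk values given further on was not tested.

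The promoter of Ctss is shown because it held a match to a motif of PU.1, a transcription factor of the myeloid lineage. The window runs from 250 bases before to 50 bases after the annotated start, from RefSeq on GRCm38.p6, at chr3:95526536-95526835 on the plus strand. Capitals mark the match.
Ctss: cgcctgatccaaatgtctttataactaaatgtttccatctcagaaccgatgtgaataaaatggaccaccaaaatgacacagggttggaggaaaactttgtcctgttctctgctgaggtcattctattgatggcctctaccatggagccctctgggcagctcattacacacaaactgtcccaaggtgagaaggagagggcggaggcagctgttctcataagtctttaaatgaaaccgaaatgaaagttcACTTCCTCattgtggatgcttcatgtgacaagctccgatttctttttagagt
The letters searched were GAGGAAGT and their reverse complement ACTTCCTC, on both strands. They were found in 4 of the 43 members with a window (9.3%, Ctsc, Ctss, Gla and Gusb). The share was 2 of 81 other lysosome and phagocytosis genes (2.47%) and 3.69% of 27025 genes. Of these 4 members only Ctss was called, and the differences ran from -0.12 to 0.34. A match is a description of the letters and does not show binding.

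The other lysosomal peptidases were Ctsd (cathepsin D, the main aspartic protease of lysosomes), Ctsa (a carboxypeptidase that protects lysosomal glycosidases) and Tpp1 (tripeptidyl peptidase 1). None of the 3 was called by limma (0 genes, 1 at an unadjusted p under 0.05), and all 3 intervals lay within 1.2-fold. Ctsd levels were 4.80, 4.83, 4.83 and 4.74 in WT and 4.85, 4.94, 4.92 and 4.97 in KO. The KO values were all above the WT values by a small margin. The difference of 0.12 (SE 0.04) was not called (limma adjusted p = 0.136), and the other Ctsd probe gave 0.12 as well. Ctsa and Tpp1 differed by -0.08 and -0.05 with overlapping groups.

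Glycosidases and sulfatases remove sugars and sulfate groups from glycoproteins, glycolipids and glycosaminoglycans, and many are genes of lysosomal storage diseases. None of the 13 members was called by limma (0 genes, 2 at an unadjusted p under 0.05), and their differences ran from -0.12 to 0.16 with a median of 0.06. Gaa (acid alpha-glucosidase, which degrades glycogen) was 4.49, 4.52, 4.49 and 4.51 in WT and 4.58, 4.67, 4.70 and 4.71 in KO. The groups did not overlap, but the difference of 0.16 (SE 0.04) missed the p threshold (limma adjusted p = 0.0586) and was below 1.2-fold. Under quantile normalization and cyclic loess the Gaa difference was 0.22 (limma adjusted p = 0.027 and 0.0237), still short of 1.2-fold. The other Gaa probe gave 0.19 (limma adjusted p = 0.129). Manba (beta-mannosidase) was -1.22, -1.16, -1.21 and -1.12 in WT and -1.06, -1.01, -1.04 and -1.07 in KO, a difference of 0.13 (limma adjusted p = 0.0848). Fuca1 (alpha-fucosidase) had KO values of 2.39 to 2.43, just below its WT values, which began at 2.43 after rounding and reached 2.59. Its difference was -0.08 (limma adjusted p = 0.286). These 3 were the members of the group whose genotypes did not overlap. Galns, a sulfatase, was -0.48, -0.58, -0.59 and -0.81 in WT and -0.49, -0.68, -0.08 and -0.65 in KO, and differed by 0.14 with an interval of -0.17 to 0.45 (limma adjusted p = 0.57). KO replicate 3 lay above the other KO arrays, and without it the Galns difference was 0.01 (limma adjusted p = 0.961). The brightest Idua probe gave 0.07 and the other one 0.24 (limma adjusted p = 0.0524), so the 2 probes disagreed in size. Hexa, Gla, Glb1, Gusb, Ids, Man2b1, Naglu and Neu1 ran from -0.12 to 0.10.

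**Figure D2:**
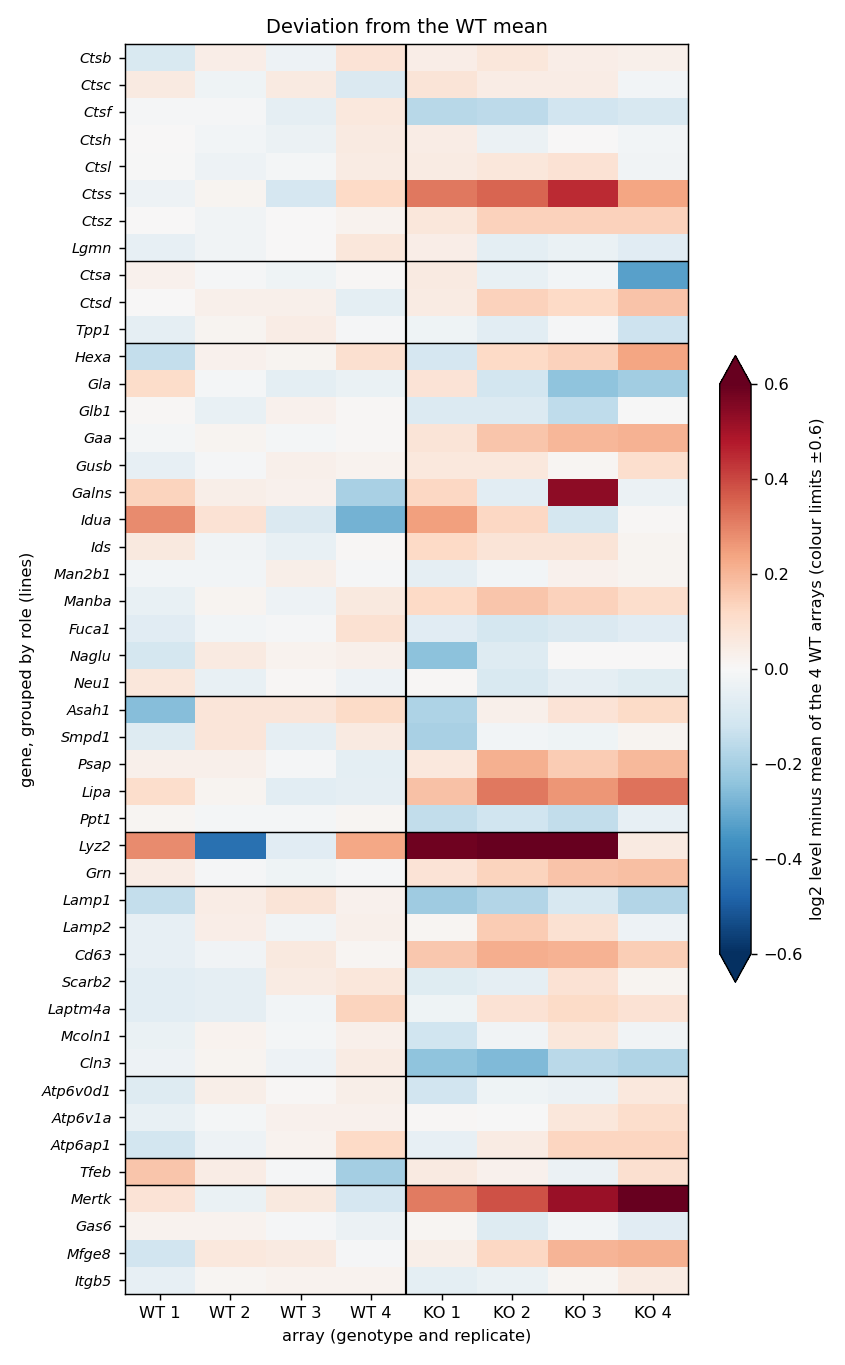
Deviation of each member's log2 level (rows, grouped by role) from the mean of its 4 WT arrays, for each array (columns). Ctss, Lipa and Mertk are higher on all 4 KO arrays, Cln3 is lower on all 4, and the 3 proton pump genes overlap between genotypes.

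Lipid hydrolases and their activators degrade the membrane and storage lipids that reach the lysosome. Of the 5 members, 1 rose and 0 fell. Lipa levels were -0.71, -0.80, -0.88 and -0.87 in WT and -0.64, -0.50, -0.55 and -0.49 in KO. The groups did not overlap, although WT replicate 1 and KO replicate 1 lay close together. The difference was 0.27 (SE 0.05, 95% interval 0.14 to 0.40, limma adjusted p = 0.034), a rise of 20.6% that lies just past the 1.2-fold limit. Psap (prosaposin, the precursor of activators of sphingolipid hydrolases) was 4.19, 4.19, 4.15 and 4.10 in WT and 4.22, 4.37, 4.31 and 4.35 in KO. The difference of 0.16 was not called (limma adjusted p = 0.083). It was 0.09 after normexp background correction (limma adjusted p = 0.259), 0.20 under quantile normalization and 0.21 under cyclic loess (limma adjusted p = 0.0559 and 0.0441), short of 1.2-fold in each. Ppt1 (palmitoyl-protein thioesterase 1, which removes palmitate from proteins) was 0.42 to 0.44 in WT and 0.28 to 0.38 in KO, a difference of -0.11 (limma adjusted p = 0.111). Psap and Ppt1 therefore lay in opposite directions, each without overlap. Asah1 (acid ceramidase) and Smpd1 (acid sphingomyelinase), which handle sphingolipids, differed by 0.01 and -0.05. The promoter of Lipa is shown beside that of Ctss, and no match to the motifs searched was found in it. The window is chr19:34527425-34527724 on the minus strand (RefSeq, GRCm38.p6).
Lipa: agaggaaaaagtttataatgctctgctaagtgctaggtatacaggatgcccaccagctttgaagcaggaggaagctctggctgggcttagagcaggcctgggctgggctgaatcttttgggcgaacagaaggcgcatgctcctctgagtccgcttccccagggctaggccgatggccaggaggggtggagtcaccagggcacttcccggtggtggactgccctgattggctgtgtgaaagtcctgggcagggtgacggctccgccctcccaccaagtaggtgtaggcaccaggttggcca

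Lyz2 (lysozyme M of macrophages and granulocytes) was not called. Its probe was dim, was not well above background on WT replicate 2 and entered the test only through the KO arrays, so the difference is uncertain. It was measured with levels of -4.46, -5.19, -4.81 and -4.51 in WT and -4.16, -3.91, -4.09 and -4.69 in KO. On 3 KO arrays the level lay above all WT values, and KO replicate 4 lay among them. The difference was 0.53 (SE 0.21, limma adjusted p = 0.167). Under normexp background correction it was 0.25 (limma adjusted p = 0.0647). Lyz1 is a near-identical paralog, and whether the probe tells them apart was not tested. Grn (progranulin, a lysosomal chaperone precursor made by microglia and neurons) was 1.96, 1.91, 1.89 and 1.91 in WT and 2.00, 2.05, 2.09 and 2.10 in KO, without overlap. Its difference, 0.14 (SE 0.04), was not called (limma adjusted p = 0.0707).

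The lysosomal membrane proteins include the abundant glycoproteins LAMP1 and LAMP2, the tetraspanin CD63 and the calcium channel MCOLN1. None of the 7 tested members was called by limma (0 genes, 3 at an unadjusted p under 0.05), and the median was -0.01. The 2 members closest to a call lay in opposite directions. Cd63 levels were 4.10, 4.13, 4.21 and 4.16 in WT and 4.31, 4.37, 4.36 and 4.30 in KO. All KO values were higher, and the difference was 0.19 (SE 0.04, limma adjusted p = 0.0362), below 1.2-fold. Cln3, which encodes a transmembrane protein lost in juvenile neuronal ceroid lipofuscinosis, was 2.81, 2.86, 2.81 and 2.89 in WT and 2.60, 2.58, 2.68 and 2.66 in KO. All KO values were lower, and the difference was -0.21 (SE 0.04, limma adjusted p = 0.0293), also below 1.2-fold. The other 2 Cln3 probes were lower as well, at -0.28 (limma adjusted p = 0.0323), which passed both thresholds, and at -0.24 (limma adjusted p = 0.0415). Lamp1 was 5.60, 5.79, 5.82 and 5.77 in WT and 5.53, 5.57, 5.65 and 5.57 in KO. The groups overlapped through WT replicate 1, and the difference was -0.16 (SE 0.06, 95% interval -0.29 to -0.03, limma adjusted p = 0.132). Quantile normalization gave -0.08 for Lamp1 and cyclic loess -0.09 (limma adjusted p = 0.431 and 0.385). Lamp2, Scarb2, Laptm4a and Mcoln1 differed by -0.02 to 0.07.

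**Figure D3:**
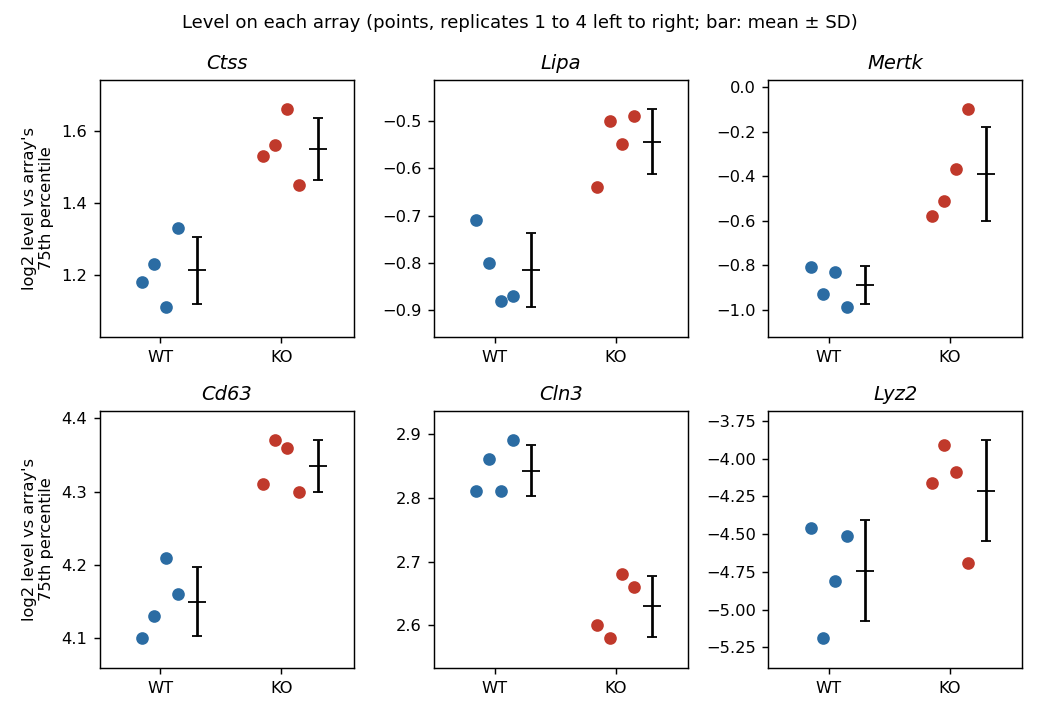
Log2 level relative to the array's 75th percentile (y axis, scaled per gene) of 6 members on each of the 4 WT and 4 KO arrays, with mean ± SD as bars. Ctss, Lipa, Mertk and Cd63 are higher and Cln3 is lower in KO without overlap, while the dim Lyz2 overlaps.

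The vacuolar proton pump is a multi-subunit ATPase that acidifies the lysosome, and its 3 members Atp6v0d1, Atp6v1a and Atp6ap1 differed by -0.03 to 0.06. Limma called 0 of them, 0 reached an unadjusted p under 0.05, and all 3 intervals lay within 1.2-fold. The 13 other pump genes listed lay between -0.09 and 0.09, again with 0 called and all 13 intervals within 1.2-fold. Tfeb, the regulator of lysosomal genes, was -1.89, -2.01, -2.06 and -2.26 in WT and -2.00, -2.03, -2.09 and -1.96 in KO. The groups overlapped fully, and the difference was 0.04 (SE 0.08, 95% interval -0.14 to 0.21, limma adjusted p = 0.806).

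The motif bound by TFEB and its relatives was then sought in the promoters, because the members' differences can be set against it. The core searched was TCACGTGA, which reads the same on both strands and contains the E-box CACGTG. It was present in 7 of the 43 members with a RefSeq window (16.3%), in 7 of 81 other lysosome and phagocytosis genes (8.64%) and in 1.12% of all 27025 genes. The 7 members were Ctsa, Ctsd, Gla, Mcoln1, Cln3, Atp6v0d1 and Atp6v1a. Their differences ran from -0.21 to 0.12 with a median of -0.03, against 0.06 in the members without the core, and 0 of the 7 were called. The E-box alone was present in 14 members (32.6%) and in 8.09% of all genes, and 0 of those 14 were called. Beside Cln3, the 4 members with a single site are shown with 12 bases on each side, from RefSeq on GRCm38.p6, with the core in capitals. They lie at chr7:142387907-142387938 (minus strand), chr8:3500461-3500492 (plus), chr8:105566049-105566080 (minus) and chr16:44139372-44139403 (minus).
Ctsd: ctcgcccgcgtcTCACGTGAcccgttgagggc
Mcoln1: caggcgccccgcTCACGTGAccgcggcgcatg
Atp6v0d1: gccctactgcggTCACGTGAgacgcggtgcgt
Atp6v1a: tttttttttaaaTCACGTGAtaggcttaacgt

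The window of Cln3 is shown whole, as that of the member with the lowest estimate. It is 1 of 2 RefSeq windows of the gene and the one that holds the core, at chr7:126583187-126583486 on the minus strand. Capitals mark the core and a separate E-box upstream of it.
Cln3: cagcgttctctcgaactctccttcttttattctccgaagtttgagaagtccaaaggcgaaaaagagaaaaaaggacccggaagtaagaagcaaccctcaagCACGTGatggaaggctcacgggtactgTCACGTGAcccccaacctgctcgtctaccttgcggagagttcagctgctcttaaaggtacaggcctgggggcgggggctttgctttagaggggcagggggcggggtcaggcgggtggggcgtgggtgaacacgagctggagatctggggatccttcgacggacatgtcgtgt
Whether TFEB binds there in retina was not tested.

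Phagocytic receptors and bridging proteins link the engulfing cell to phosphatidylserine on its target. Of the 4 members, 1 rose and 0 fell, and the rise was in the receptor. Mertk levels were -0.81, -0.93, -0.83 and -0.99 in WT and -0.58, -0.51, -0.37 and -0.10 in KO. The groups did not overlap, and the KO values were spread more widely (SD 0.21 against 0.08). The difference was 0.50 (SE 0.10, 95% interval 0.26 to 0.73, limma adjusted p = 0.0348), a rise of 41.1%. Its ligand Gas6 differed by -0.04 and the integrin subunit Itgb5 by -0.01, both with intervals within 1.2-fold. Pros1 (protein S), the other bridging ligand of MERTK and a gene of the wider list, was -1.57, -1.40, -1.40 and -1.30 in WT and -1.32, -0.97, -1.07 and -0.94 in KO. On 3 KO arrays Pros1 lay above all WT values and KO replicate 1 lay just below WT replicate 4, and its difference of 0.34 (95% interval 0.13 to 0.56) was not called (limma adjusted p = 0.0708). Mfge8, the bridging protein recognised by that integrin, was 7.05, 7.23, 7.22 and 7.16 in WT and 7.20, 7.29, 7.37 and 7.38 in KO. KO replicate 1 lay among the WT values, and the difference was 0.14 (limma adjusted p = 0.185), or 0.25 under quantile normalization and 0.24 under cyclic loess (limma adjusted p = 0.0577 and 0.0591). The Mertk promoter, chr2:128698665-128698964 on the plus strand (RefSeq, GRCm38.p6), is shown as that of the third called member, without a match to the motifs searched.
Mertk: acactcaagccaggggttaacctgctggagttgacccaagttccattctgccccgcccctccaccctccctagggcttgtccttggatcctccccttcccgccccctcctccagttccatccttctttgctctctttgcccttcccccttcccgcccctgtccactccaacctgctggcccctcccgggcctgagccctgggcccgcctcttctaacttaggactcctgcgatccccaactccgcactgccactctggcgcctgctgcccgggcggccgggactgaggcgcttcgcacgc

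MERTK is made by the pigment epithelium as well as by glia and phagocytes, so markers of those cells are given beside it. Of 14 pigment epithelium markers 12 were tested, 0 were called, and the median difference was 0.09. Their summed linear level was 25.6 to 32.2 in WT and 25.6 to 32.8 in KO and overlapped (exact permutation p = 0.686). Rpe65, which defines that epithelium, differed by 0.25 (limma adjusted p = 0.208), the highest value of a list that ran down to -0.23 for Pmel, a melanosome protein (limma adjusted p = 0.436). Müller glia markers were higher, with 1 of 12 called (Kcnj10), a median of 0.16 and a summed level that went from between 176 and 182 in WT to between 196 and 203 in KO (exact permutation p = 0.0286). Rod markers were lower, with 3 of 15 called lower, a median of -0.20 and a summed level between 2590 and 2690 in WT against 2190 to 2360 in KO (exact permutation p = 0.0286), and all 15 were well above background on all 8 arrays. Endothelial markers had 0 of 8 called and a median of -0.16, with a summed level that was lower in KO without overlap (exact permutation p = 0.0286), and lens markers had 0 of 4 called (exact permutation p = 0.2 for the sum). The part of each cell type in the Mertk difference was not tested.

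A wider list of 106 other lysosome and phagocytosis genes was read from the same limma fit, and 100 of them were tested. Of these, 3 rose and 1 fell, beside 1.99% of all genes called higher and 1.49% lower, so the counts lay near the background. The median was 0.01, and 52 were higher and 48 lower in KO, where 42.2% of all genes were higher. The genotypes did not overlap in 22 of them (22.0%, against 21.2% of all genes). Tpcn2, Tfec, Cd36, Msr1, Fcgr2b and Timd4 were too dim to be tested.

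The 18 tested phagocytosis genes of that list had a median difference of 0.10, with 14 higher and 4 lower in KO. Their median deviation from the WT mean was -0.03 to 0.02 on the WT arrays and 0.07 to 0.14 on the KO arrays. Of these genes 2 rose, Trem2 and Fcgr3, which are receptors of microglia and other myeloid cells. Trem2, a lipid-sensing receptor that signals through TYROBP, was -0.22, -0.18, -0.22 and 0.01 in WT and 0.42, 0.35, 0.39 and 0.21 in KO. All KO values were higher, and the difference was 0.49 (SE 0.07, limma adjusted p = 0.0127). Fcgr3, a receptor for immunoglobulin G, was -2.90, -2.85, -2.95 and -2.76 in WT and -2.51, -2.39, -2.33 and -2.65 in KO. Again all KO values were higher, and the difference was 0.39 (SE 0.08, limma adjusted p = 0.0294). Itgb2, an integrin subunit of leukocytes and microglia, was lower in KO without overlap at -0.23 (limma adjusted p = 0.0866), and its partner Itgam differed by 0.02 (limma adjusted p = 0.949). The microglia marker values given beside Ctss apply to all 4, and Tyrobp, the partner of Trem2, was among the called markers. Axl, a relative of Mertk, and Dock1, which activates RAC1 during engulfment, each differed by 0.19 (limma adjusted p = 0.0407 and 0.0395), short of 1.2-fold. Gulp1, an engulfment adaptor, differed by -0.25 (limma adjusted p = 0.0277), also short of it.

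Among the 33 other hydrolases and cofactors, 0 rose and 1 fell. Ctsw, a cathepsin of cytotoxic lymphocytes, was -1.49, -1.53, -1.53 and -1.49 in WT and -1.84, -1.81, -1.87 and -1.82 in KO. The replicates lay close together and the groups far apart, with a difference of -0.33 (SE 0.03, limma adjusted p = 0.00481), so Ctsw and Ctss were called in opposite directions. Arsg, a sulfatase, was 1.73 to 1.75 in WT and 1.45 to 1.55 in KO, a difference of -0.25 that was short of 1.2-fold (limma adjusted p = 0.0144). Ctsk, a cathepsin best known from osteoclasts, was -1.33 to -1.07 in WT and -0.98 to -0.77 in KO. Its difference of 0.30 lay just outside the threshold (limma adjusted p = 0.0502). Ctsk was called higher in 4 alternatives, with limma adjusted p of 0.0435 when only probes seen on all arrays set the percentile, 0.0427 with probes above background on all arrays, 0.0167 with limma's trend and robust options and 0.0278 with the mean of a gene's probes.

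Of the 9 tested regulators, 1 rose. Mitf, a relative of Tfeb that also directs pigment cell genes, was -0.46, -0.28, -0.32 and -0.39 in WT and -0.09, 0.00, -0.08 and -0.04 in KO. The groups did not overlap, and the difference was 0.31 (SE 0.05, limma adjusted p = 0.0178). The other Mitf probe gave 0.20 (limma adjusted p = 0.0508). Pigment epithelium markers, given beside Mertk, overlapped between genotypes in their sum, with 9 of the 12 tested higher and 3 lower in KO. The part of that epithelium in the Mitf difference was not tested. The 27 tested membrane and trafficking genes had 0 calls and a median of -0.01. Among them Laptm5, a lysosomal membrane protein of immune cells, was -2.07, -2.32, -2.45 and -2.58 in WT and -1.86, -1.73, -2.02 and -1.98 in KO. All KO values were higher, and the Laptm5 difference of 0.46 (SE 0.11) lay just outside the threshold (limma adjusted p = 0.0571), with 0.34 from its other probe.

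**Figure D4:**
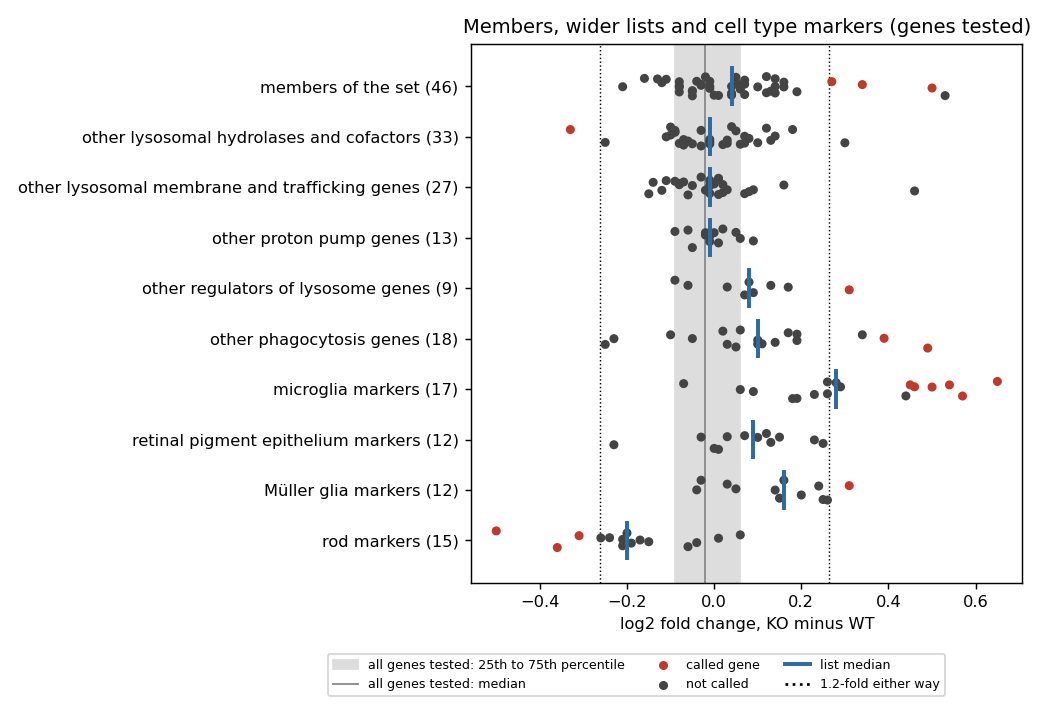
Log2 fold change (KO minus WT, x axis) of each tested gene in the member set, the wider lists and the marker lists, with called genes in red, list medians as bars and the quartiles of all tested genes in grey. The member median (0.04) and those of the other hydrolase, membrane and pump lists (-0.01 each) lie within the grey band. Right of it lie the medians of the other regulators (0.08), other phagocytosis genes (0.10) and pigment epithelium (0.09), Müller glia (0.16) and microglia markers (0.28). The rod median (-0.20) lies left of it.

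The calls of the 3 members depended on which arrays were used. Dropping 1 array at a time left 0 to 3 members called. Of the 8 fits, Ctss was no longer called in 5, with a highest limma adjusted p of 0.0766 when KO replicate 2 was dropped. Lipa was not called in 6, with a highest value of 0.0925 for the same array, and Mertk in 6, with 0.0956 when WT replicate 2 was dropped. The differences stayed positive in every such fit and in every other setting tried, between 0.30 and 0.38 for Ctss, 0.24 and 0.31 for Lipa and 0.40 and 0.56 for Mertk. A median shift ended the calls of Ctss and Lipa, normexp background correction that of Lipa, the methods' t-test that of Mertk, and a test without a filter on dim probes all 3. The replicate number as a block also ended all 3 (limma adjusted p = 0.083 for Ctss, 0.0859 for Lipa and 0.0821 for Mertk). Normexp also ended the calls of Fcgr3 (0.21) and Ctsw (-0.26), both short of 1.2-fold there. With an array left out, the share of all genes called also moved, from 1.59% without WT replicate 2 to 3.97% without KO replicate 1. Trem2 and Ctsw were called in all 8 fits (highest limma adjusted p 0.0469 and 0.0267), while Mitf was not called in 3 and Fcgr3 in 6. With no filter on dim probes the calls of Trem2, Fcgr3 and Mitf ended (limma adjusted p = 0.0517, 0.0889 and 0.0671), and with the replicate number as a block those of Trem2 and Fcgr3 (limma adjusted p = 0.0618 and 0.0811). A median shift ended the call of Fcgr3 (limma adjusted p = 0.0575), and the mean of a gene's probes put Mitf at 0.26, short of 1.2-fold.

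**Figure D5:**
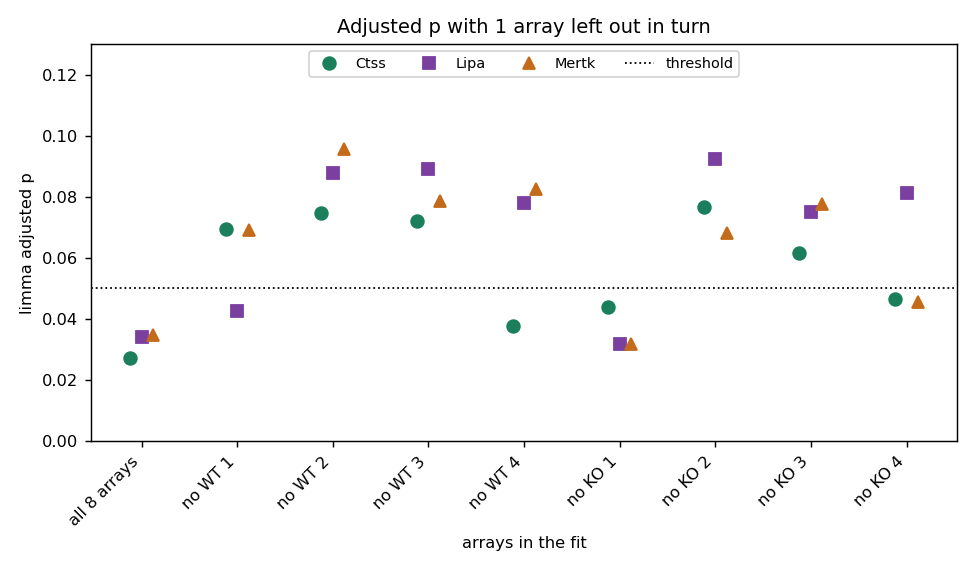
Limma adjusted p (y axis) of Ctss, Lipa and Mertk with all 8 arrays and with each array left out in turn (x axis), with the 0.05 threshold dotted. The points lie between 0.0274 and 0.0956, and all 3 genes stay below the threshold only without KO replicate 1.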

How the data were processed

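Per the labels, 8 samples (4 WT, 4 KO) were hybridised in 1 colour, and groups and replicate numbers came from their titles. The authors quantified scans with Agilent Feature Extraction 10.7.1.1, and the deposited files hold, per the file headers, background-subtracted intensity on a linear scale. The deposited table of the series holds the authors' 75th percentile shifted log2 values, which lay above the present ones by a fixed 0.123 to 0.148 on each array, and served as an alternative.

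The processed signal was put on a log2 scale, and the 75th percentile over the 59305 spots that are no controls was subtracted per array. Outlier spots (86 to 147 per array) were dropped, and 0 spots were saturated. Probes entered the test if every array of WT, or every array of KO, measured them well above background. Symbols came from a RefSeq table (26413 of 55681 probes, 47.4%), used only for names because its assembly differs from the array design's build. Of a gene's probes the brightest over 8 arrays was used. Limma 3.58.1 in R 4.3.3 was fitted without covariates and tested on simulated data. Two-sided exact permutation tests served for single values. The number of arrays limits the precision.

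The members and lists were chosen with earlier results of these data known. Named with full values were called members, the 10 largest differences among members not called, Lamp1, Ctsd, Tfeb and Mertk, and called genes of the wider list. Marker lists are given by counts and summed level, with the difference of up to 3 defining markers. Other named genes (members without overlap, called markers, Pmel, genes short of the fold limit, Ctsk, Siglech, Itgb2, Itgam, Pros1 and Laptm5) were named after their values were seen. Alternatives covered normalization, background correction, dim-probe filters, probe choice, test, thresholds, the replicate number as a block and leaving out each array.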

Additional observations from a re-analysis of the deposited data

Results flagged for a closer look

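The level of every member and of the called genes of the wider list was searched for an array far from the other 3 of its genotype, over 100 groups of 4 arrays, of which chance gives about 1 in 20. The gap to the nearest array, divided by the group's range, passed Dixon's critical value for 4 arrays in 4 groups. Ctsz on KO replicate 1 was low at 2.04 against 2.11 on the other KO arrays (ratio 0.914), and without that array its difference was 0.14 (limma adjusted p = 0.0668). WT replicate 1 was low for Asah1, at 0.20 against 0.53 to 0.57 (ratio 0.868), and without it the difference went from 0.01 to -0.08 (limma adjusted p = 0.609). WT replicate 1 was also low for Naglu, at 0.93 against 1.06 to 1.09 (ratio 0.836), and for Itgb5, at 2.78 against 2.84 to 2.85 (ratio 0.835). Without it their differences were -0.12 and -0.02 (limma adjusted p = 0.376 and 0.784). KO replicate 1 was also the lowest KO array for all 3 of these genes, at 0.27 for Asah1, 0.79 for Naglu and 2.77 for Itgb5, and it was kept in those fits, so the differences without WT replicate 1 set 3 WT arrays against a KO group that still holds its low array.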

How the results depend on the processing

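Of 46 members, 3 were called higher with all 8 arrays, 1 after a median shift, and 0 with no filter on dim probes or at a minimum fold change of 1.5. With no minimum fold change 1 member was called lower. Leaving out 1 array gave 0 to 3 members higher and 0 lower in each run. In the wider list, where 3 were called higher, the count was 0 with no filter or at 1.5-fold, 5 with probes above background on all arrays, with the mean of a gene's probes or with no minimum fold, and 6 with limma's trend and robust options. The 1 lower gene of that list became 0 under normexp or at 1.5-fold and 3 with no minimum fold. Leaving out 1 array gave 1 to 4 higher and 1 to 2 lower there. Over all genes 519 calls became 158 with no filter, 989 with no minimum fold, 69 at 1.5-fold, and 238 to 593 with 1 array left out. The members' median of 0.040 moved to 0.059 under quantile normalization, 0.059 when only probes seen on all arrays set the 75th percentile and 0.067 under cyclic loess, and stayed 0.031 to 0.040 with 1 array left out. It exceeded the median of all genes by 0.045 to 0.063 in every setting. Tfeb changed sign without WT replicate 4 and ranged from -0.03 to 0.09 with 1 array left out. Among other named genes, Ctsd was 0.18 under quantile normalization and cyclic loess, Ctsf -0.08 and Fuca1 -0.05 under cyclic loess, and Dock1 0.11 under normexp. Causes of these moves were not tested.

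With the replicate number as a block, 0 members, 1 higher and 1 lower gene of the wider list and 221 genes overall were called. Same-numbered arrays correlated at 0.249, 0.069, 0.037 and 0.112 in their deviations from the group means. Of the 8 arrays, 7 correlated best with the array of their own number, a hint from the data and not from the design, and WT replicate 3 correlated slightly better with KO replicate 4 (0.045). With 2 of 4 pairs at or below 0.1 and no label that ties the numbers to a litter or day, pairing was not established. The signal over background limits Lyz2.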
